A study of Homo sapiens with 4 samples.

Results

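The factors that make ribosomes in the nucleolus were followed in HEK293 cells, a human embryonic kidney line, with and without lysophosphatidic acid (LPA), a serum phospholipid that signals through G protein-coupled receptors. The list held 42 genes for the processing of ribosomal RNA (rRNA) and the assembly of both ribosomal subunits. A gene was measured if the platform annotation gave it a probe set with exactly 1 symbol, and its brightest probe set stood for it. That left 35 of the 42, out of 19775 genes with such a probe set. All 35 lay above the intensity filter, a mean signal of 70.5, which 11865 genes passed. Of the 7 genes not measured, NOP56, DKC1, BOP1 and PPAN had only probe sets that list several symbols, and DDX18, EBNA1BP2 and GNL3 were matched to no probe set of the annotation.

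All cells were grown in medium with 10% fetal bovine serum and then kept without serum overnight. The LPA cells next received LPA at 1 µM for 2 h. The untreated cells have the letters Vc in their titles, which the labels do not explain. Each group had 2 arrays, with replicate numbers 1 and 2. The labels do not say whether the replicates were separate cultures or what the number marks, so every p-value here reflects array-to-array spread alone, and that spread could be purely technical.

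Ribosome assembly begins in the nucleolus on the long precursor that RNA polymerase I transcribes. Small nucleolar ribonucleoproteins (snoRNPs) modify and help to cut this precursor: box C/D particles guide methylation of ribose and box H/ACA particles guide pseudouridylation. The small subunit processome folds the first part of the precursor, and other factors build the large subunit around the rest. Growing cells keep these genes active, and the transcription factor MYC is known for raising many of them through the letters CACGTG, the E-box that MYC and its partner MAX bind along with other factors of the same class.

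RefSeq promoter windows (GRCh38.p14, 250 bases before to 50 after the start site) were matched for 35 of the 42 genes. NOP58, RRP12, BOP1, RRP1B, RRS1, DDX18 and NOLC1 had no entry. For 31 of the 35 the start site of the window was also found as the gene's first base in the RefSeq gene annotation. CACGTG, which reads the same on both strands, was found in 14 of these 35 windows (40%), against 7.43% of all 27305 windows and 10.5% of the 9725 windows of tested genes. It was in 29 of 103 windows (28.2%) of other ribosome assembly genes and in 3 of 63 (4.76%) of cytosolic ribosomal protein genes. In 11 of the 14 the letters began within 20 bases of the start site. Among all windows with the letters that was so in 334 of 2030 (16.5%), and among those of tested genes in 200 of 1018 (19.6%). For the other ribosome assembly genes it was so in 14 of 29 (48.3%). The width of 20 bases was chosen after the positions were seen. These 11 stretches are shown because they lie at the start site, 5′ to 3′ on the gene's strand, with CACGTG in capitals.
MRTO4, chr1:19251807-19251836 (+): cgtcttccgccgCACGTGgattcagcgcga
GNL2, chr1:37595917-37595946 (-): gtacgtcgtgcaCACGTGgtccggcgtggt
WDR43, chr2:28894658-28894687 (+): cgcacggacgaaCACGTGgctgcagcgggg
RRP9, chr3:51941892-51941921 (-): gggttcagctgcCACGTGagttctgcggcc
NOP14, chr4:2963374-2963403 (-): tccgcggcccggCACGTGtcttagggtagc
NOC3L, chr10:94362903-94362932 (-): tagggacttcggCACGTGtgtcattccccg
UTP20, chr12:101280083-101280112 (+): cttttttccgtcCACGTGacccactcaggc
NOP10, chr15:34343130-34343159 (-): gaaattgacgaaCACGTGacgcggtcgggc
UTP4, chr16:69132621-69132650 (+): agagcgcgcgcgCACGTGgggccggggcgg
FBL, chr19:39846356-39846385 (-): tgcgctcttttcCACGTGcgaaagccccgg
PES1, chr22:30591880-30591909 (-): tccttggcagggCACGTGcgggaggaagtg

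The letters begin 5, 10, 11 and 16 bases before the start site in RRP9, UTP20, NOP10 and UTP4. In GNL2 and WDR43 they begin 3 bases after it, in FBL 6, and in PES1, MRTO4, NOP14 and NOC3L 13 to 19. A match is a description of these letters and not evidence of binding. The other 3 windows with the letters were those of BYSL, NOP2 and EBNA1BP2.

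The deposited MAS5 intensities had array medians of 70.3 to 76.1 and a common trimmed mean of 500.1. The array of LPA replicate 2 stood apart at the bright end: its highest intensity was 62508, against 93776 to 104012 on the others. Of 266 tested genes with a mean untreated signal over 20000, 240 (90.2%) were lowest on that array. The number of arrays limits the precision, and an exact permutation of 2 arrays against 2 cannot give a p below 0.333. Of 9 markers of the HEK293 background, 8 lay above the filter, among them VIM and NEFM. Of 14 measured markers of other cell types 10 lay below it, and the other 4 were COL1A1, EPCAM, HBB and PECAM1.

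The first comparison asks whether these transcripts differed after 2 h of LPA. None of the 35 nucleolar factors passed: limma gave adjusted p = 0.9999 for each, and 0 of 11865 genes (0%) passed over the whole array. Before adjustment, limma gave 0 of the 35 a p under 0.05, against 207 (1.74%) of all genes. The differences were small. On the log2 scale, 16 of the 35 differed by under 0.1, 17 by 0.1 to 0.3 and 2 by more, RRP9 and UTP15. The difference was negative for 26 and positive for 9, with a median of -0.055, against 0.0092 over all genes tested. Both LPA values lay below both untreated values for 8 factors, where 12.5% of all genes did so, and above them for 2, against 14.4%. Of the 23 factors in the brightest 20% of the tested genes, 6 were lower without overlap and 0 higher. Over the 2373 genes of that class the counts were 456 and 220. The 8 became 5 with median centring, where the background was 12.4%, and the 2 became 1 with cyclic loess (13.6%). The genes changed as well. FBL, RRP9 and DDX21 were lower without overlap in the deposited values and after each of the 3 rescalings tried (quantile, cyclic loess and median centring). A second probe set of DDX21 overlapped in the deposited values. WDR12 and RRP12 overlapped after all 3 rescalings. With quantile normalization the 2 higher factors were NPM1 and WDR3, and UTP15 overlapped. With an SE of 0.14 to 0.36 these data do not show that LPA left the genes alone. The fit had no term for replicate number. With that term added, 32 genes and 0 of the factors passed, though the labels do not say that the number pairs the arrays.

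**Figure D1:**
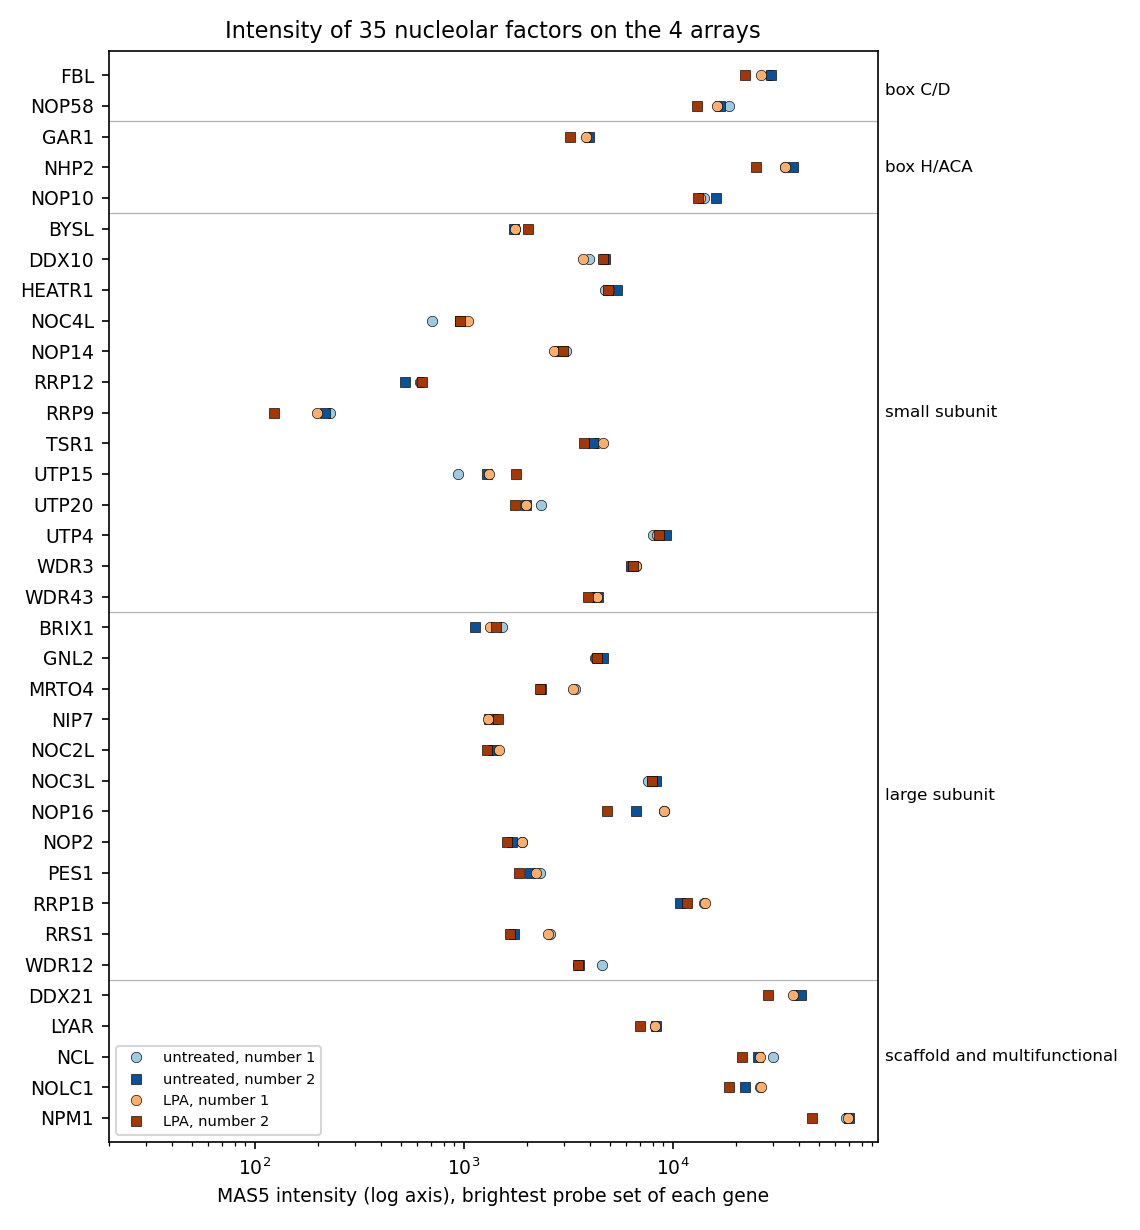
MAS5 intensity (horizontal log axis) of the brightest probe set of each of the 35 measured factors on the 4 arrays, grouped by role; each point is 1 array. The array of LPA replicate 2 (dark orange squares) is the lowest of the 4 for 20 of the 35 factors, including all of the box C/D, box H/ACA and scaffold groups, against 24.0% of all tested genes and 42.2% of the brightest 20% of them, which hold 23 of the 35.

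Neither measured box C/D protein overlapped between groups in the deposited values, but NOP58 did under cyclic loess and median centring. FBL, fibrillarin, is the methyltransferase of these particles. Untreated cells had signals of 29266 and 29501 and LPA cells 26443 and 22083. The difference on the log2 scale was -0.28 ± 0.16 (limma's SE, with n = 2 in each group, as for all values below). NOP58, a core protein that holds the guide RNA, read 18549 and 16839 against 16295 and 13017 (-0.28 ± 0.17). For both genes the LPA array of replicate 2 was the lowest and the difference was larger in replicate number 2, at -0.42 for FBL and -0.37 for NOP58, than in number 1, at -0.15 and -0.19.

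The box H/ACA proteins NHP2, NOP10 and GAR1 assemble with the pseudouridine synthase dyskerin (DKC1, not measured). NHP2 read 34358 and 37547 against 34435 and 24944 (-0.29 ± 0.19). Its first LPA value therefore lay between the untreated values in the deposited values, and only the second was lower. With cyclic loess and with median centring both LPA values of NHP2 lay below both untreated values. NOP10 read 14113 and 16075 against 13515 and 13126 (-0.18 ± 0.15). GAR1 read 3906 and 3969 against 3834 and 3205 (-0.17 ± 0.16). NOP10 and GAR1 had no overlap in the deposited values, though NOP10 did with quantile normalization and cyclic loess and GAR1 with median centring, and within replicate number 1 they differed by only -0.062 and -0.027.

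All 5 scaffold and multifunctional proteins had a negative difference. NPM1, the chaperone nucleophosmin, read 67117 and 69583 without and 68844 and 46289 with LPA (-0.28 ± 0.21). DDX21, an RNA helicase that acts in transcription and processing of rRNA, read 38522 and 41157 against 37468 and 28487 (-0.29 ± 0.18). NCL, nucleolin, an RNA-binding protein of the nucleolus, read 30012 and 25658 against 26253 and 21500 (-0.22 ± 0.17). In each case the value of LPA replicate 2 was the lowest, and DDX21 alone of the 5 had no overlap between groups in the deposited values. A second DDX21 probe set read 26100 and 25503 against 26042 and 22366 (-0.096), so its groups overlapped. NOLC1, which carries snoRNPs through the nucleus, differed by -0.11 ± 0.20 and the nucleolar zinc finger protein LYAR by -0.12 ± 0.15.

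Of the 13 small subunit factors, 5 had a positive and 8 a negative difference, with a median of -0.026. UTP15, a subunit of the processome complex that also supports transcription of the precursor, had the largest positive difference of the 35. Its signals were 941 and 1294 without and 1321 and 1778 with LPA (0.47 ± 0.23). The groups did not overlap, except under quantile normalization, and the differences within the replicate numbers were close, at 0.49 and 0.46. With a term for replicate number, limma gave UTP15 an unadjusted p of 0.00097 and an adjusted p of 0.129. That fit gave 1 of the 35 factors an unadjusted p under 0.05, against 1014 of 11865 genes. The labels do not say that the number pairs the arrays. A second UTP15 probe set read 210 and 97.6 against 190 and 80.9, a difference of -0.20, so the probe sets disagreed in direction.

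RRP9, a protein of the U3 snoRNP, read 228 and 217 against 199 and 124. Its log2 difference, -0.50 ± 0.36, was the largest negative one and rested mostly on LPA replicate 2. UTP20, a large scaffold of the processome, read 2341 and 1985 against 1974 and 1763 (-0.21 ± 0.17), with no overlap by a narrow margin that median centring removed. RRP12, needed late in subunit maturation, read 620 and 525 against 627 and 629 (0.14 ± 0.23), without overlap in the deposited values alone. NOC4L, the partner of NOP14, read 706 and 958 against 1048 and 957 (0.28 ± 0.22), with untreated replicate 1 as the low array. Its groups overlapped in the deposited values but not with median centring, where both LPA values were higher.

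The remaining small subunit factors overlapped between groups in the deposited values. Differences were 0.12 for BYSL, 0.016 for WDR3, -0.024 for UTP4, -0.026 for TSR1, -0.033 for HEATR1, -0.055 for WDR43, -0.055 for DDX10 and -0.064 for NOP14. UTP4, HEATR1 and WDR43 belong with UTP15 to the early processome complex, DDX10 is a helicase, and TSR1 and BYSL act on later particles.

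The 12 measured large subunit factors had a median difference of -0.031, with 4 positive and 8 negative. WDR12, which forms the PeBoW complex with PES1 and BOP1, was the only one without overlap in the deposited values, at 4601 and 3560 against 3530 and 3531 (-0.20 ± 0.17). Here untreated replicate 1 was the high array and the other 3 lay close together. Another WDR12 probe set went the other way without overlap, at 286 and 259 against 389 and 330 (0.40). A dimmer probe set gave -0.21, and the mean of all WDR12 probe sets gave -0.0024. PES1, the partner of WDR12, differed by -0.12 ± 0.18. The others were NOP16 (-0.23), RRS1 (-0.048), NOP2 (-0.044), an rRNA methyltransferase, the GTPase GNL2 (-0.035), MRTO4 (-0.026), NOC3L (-0.0033), NIP7 (0.010), NOC2L (0.022), RRP1B (0.062) and BRIX1 (0.077).

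**Figure D2:**
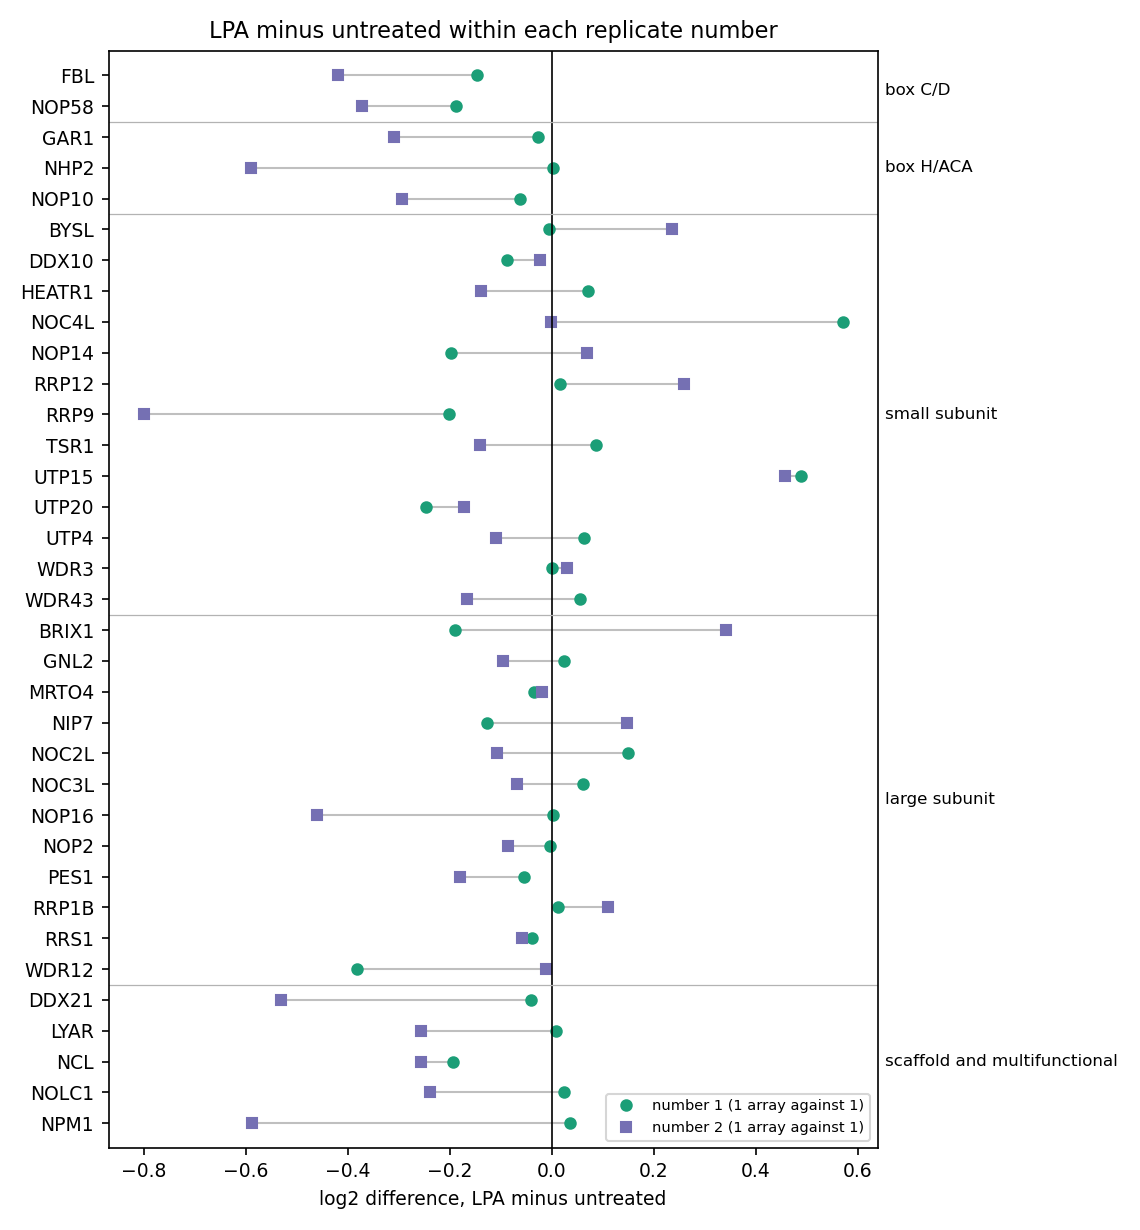
Log2 difference between LPA and untreated cells (horizontal axis) of each of the 35 factors, with replicate number 1 as green circles and number 2 as purple squares; each point compares 1 array with 1 array. In number 1 the factors scatter around a median of -0.0029, and in number 2 the median is -0.11, with 27 of 35 below 0.

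Within replicate number 1 the factors had a median LPA difference of -0.0029, with 17 positive and 18 negative, against -0.0014 over all genes tested. Within number 2 the median was -0.11, with 8 positive and 27 negative, against 0.025 over all genes. Each of these compares 1 array with 1 array and has no replicate check. Leaving out LPA replicate 2 from the group comparison moved the factors' median from -0.055 to 0.0014, and leaving out LPA replicate 1 moved it to -0.18.

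Among 5 equal classes of intensity over all tested genes, only the brightest had a negative median difference in number 2. The other classes had medians of 0.033 to 0.13. Of the 35 factors, 23 were in the brightest 20% of the tested genes. In number 2 that class had a median difference of -0.089 over its 2373 genes, and the 23 factors in it had -0.17. In number 1 the same medians were 0.0016 and 0.0021. The 6 factors with a mean untreated signal over 20000, which were NPM1, DDX21, NHP2, FBL, NCL and NOLC1, had a median of -0.47 in number 2, against -0.39 over the 266 genes that bright. The other 29 factors had a median of -0.086 in number 2, with 21 negative, from -0.80 (RRP9) to 0.46 (UTP15). Over the 11599 tested genes with a mean untreated signal up to 20000 the median was 0.034, with 5284 negative. Quantile normalization, which gives all arrays the same distribution, brought the median of these 6 factors in number 2 to -0.073, and cyclic loess to -0.19. For NPM1 the difference over both numbers turned to 0.062 with quantile normalization and stayed negative, at -0.094, with cyclic loess. NOLC1 turned to 0.010 and 0.016. The median of all 35 factors over both numbers was -0.039 with quantile normalization and -0.026 with cyclic loess, with 23 of 35 negative under each.

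**Figure D3:**
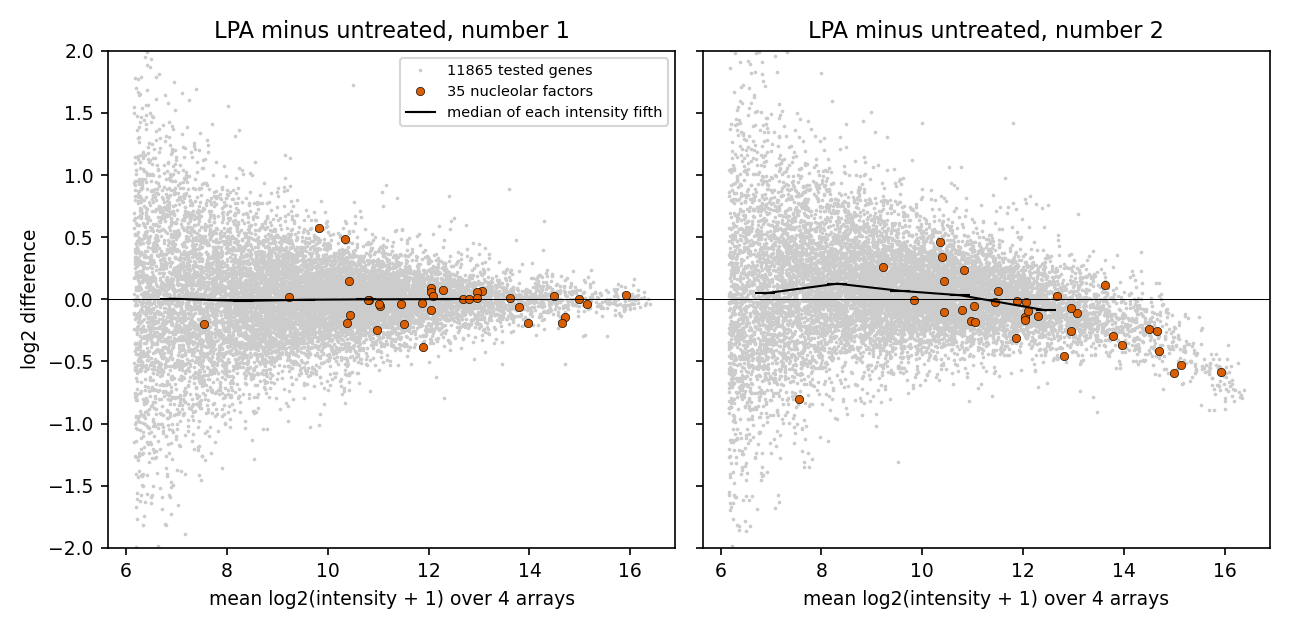
Log2 difference between LPA and untreated cells (vertical axis) against mean log2(intensity + 1) over the 4 arrays for all tested genes (grey) and the 35 factors (orange), for replicate number 1 on the left and number 2 on the right; the black line joins the medians of 5 equal classes of intensity, and 34 and 46 genes lie outside the vertical range. In number 1 the medians stay near 0 and in number 2 the brightest genes bend downward, with the brightest factors among them.

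Other genes of ribosome assembly were taken from fixed lists. Of 111 tested, 0 passed for LPA by limma, and the median difference was -0.065. Before adjustment limma gave 2 of them a p under 0.05, against 1.74% of all genes (207 of 11865). TAF1D, a subunit of the selectivity factor of RNA polymerase I, was one of the 2, at 1639 and 1453 against 2181 and 2386. The other was RRP1, a relative of RRP1B, at 1014 and 1117 against 842 and 692. Both were picked after their values were seen. The 53 tested genes for cytosolic ribosomal proteins, had medians of -0.028 in number 1 and -0.61 in number 2, and 51 of them were lowest on LPA replicate 2. The 73 for mitochondrial ribosomal proteins had medians of -0.044 and -0.083.

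The second comparison set both arrays of replicate number 2 against both of number 1, with treatment as a term in the fit. By limma 4 of the 35 factors passed, against 11.6% of all genes (1382 of 11865), so the share was near that of the whole array. NOP16, RRS1 and MRTO4 were lower in number 2 and UTP15 was higher. Before adjustment 7 of 35 had a p under 0.05, against 23.7% of all genes. Both number 2 values lay below both number 1 values for 10 factors, against 24.1% of all genes, and above them for 3, against 26.5%. With median centring the 10 became 19 (background 30.8%) and the 3 became 1 (20.6%), while quantile normalization made the 3 into 7 (27.4%) and cyclic loess into 6 (27.5%). The median difference of the 35 was -0.12, with 24 negative, against 0.014 over all genes. It was -0.062 with quantile normalization and -0.19 with median centring. All 4 calls were lost, as were those of all other genes, when limma was run without the intensity trend in its variance estimate. The smallest adjusted p was then 0.296, with 1822 genes at an unadjusted p under 0.05. Median centring moved the share of higher values among all calls from 49.7% to 33.1%.

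NOP16, RRS1 and MRTO4 all serve the large subunit. NOP16 read 9108 in untreated and 9121 in LPA cells of number 1, and 6628 and 4821 in those of number 2 (-0.69 ± 0.13, adjusted p = 0.000446). RRS1, which helps to bring a ribosomal RNA and its proteins into the large subunit, read 2587 and 2519 in number 1 and 1729 and 1661 in number 2 (-0.59 ± 0.11, adjusted p = 0.000783). MRTO4, a relative of a ribosomal stalk protein, read 3398 and 3318 against 2339 and 2309 (-0.53 ± 0.11, adjusted p = 0.00154). For RRS1 and MRTO4 the difference was nearly the same without LPA, at -0.58 and -0.54, as with it, at -0.60 and -0.52. For NOP16 it was -0.46 without LPA and -0.92 with it. In linear terms the number 1 signal was 1.61-fold that of number 2 for NOP16, 1.51-fold for RRS1 and 1.44-fold for MRTO4.

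UTP15 was higher in number 2, at 1294 and 1778 against 941 and 1321 (0.44 ± 0.13, adjusted p = 0.0235). Without the treatment term it did not pass (limma adjusted p = 0.218). The 2 numbers overlapped, since the LPA value of number 1 lay above the untreated value of number 2. The second UTP15 probe set went the other way, at 97.6 and 80.9 in number 2 against 210 and 190 in number 1 (-1.16).

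Among factors that did not pass, the largest differences were those of RRP9 (-0.38 ± 0.35), NOLC1, RRP1B and DDX10. NOLC1 read 26039 and 26487 in number 1 and 22022 and 18659 in number 2 (-0.37 ± 0.18, adjusted p = 0.206). RRP1B, a large subunit factor that also binds a protein phosphatase, read 14125 and 14247 against 10787 and 11653 (-0.34 ± 0.14, adjusted p = 0.122). DDX10 went the other way, with 3958 and 3727 against 4729 and 4652 (0.29 ± 0.11, adjusted p = 0.0881). For these 3 genes the numbers did not overlap. NOLC1 and RRP1B passed under quantile normalization (adjusted p = 0.0210 and 0.0403), and both passed with DDX10 under cyclic loess (0.0153, 0.0307 and 0.0387).

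**Figure D4:**
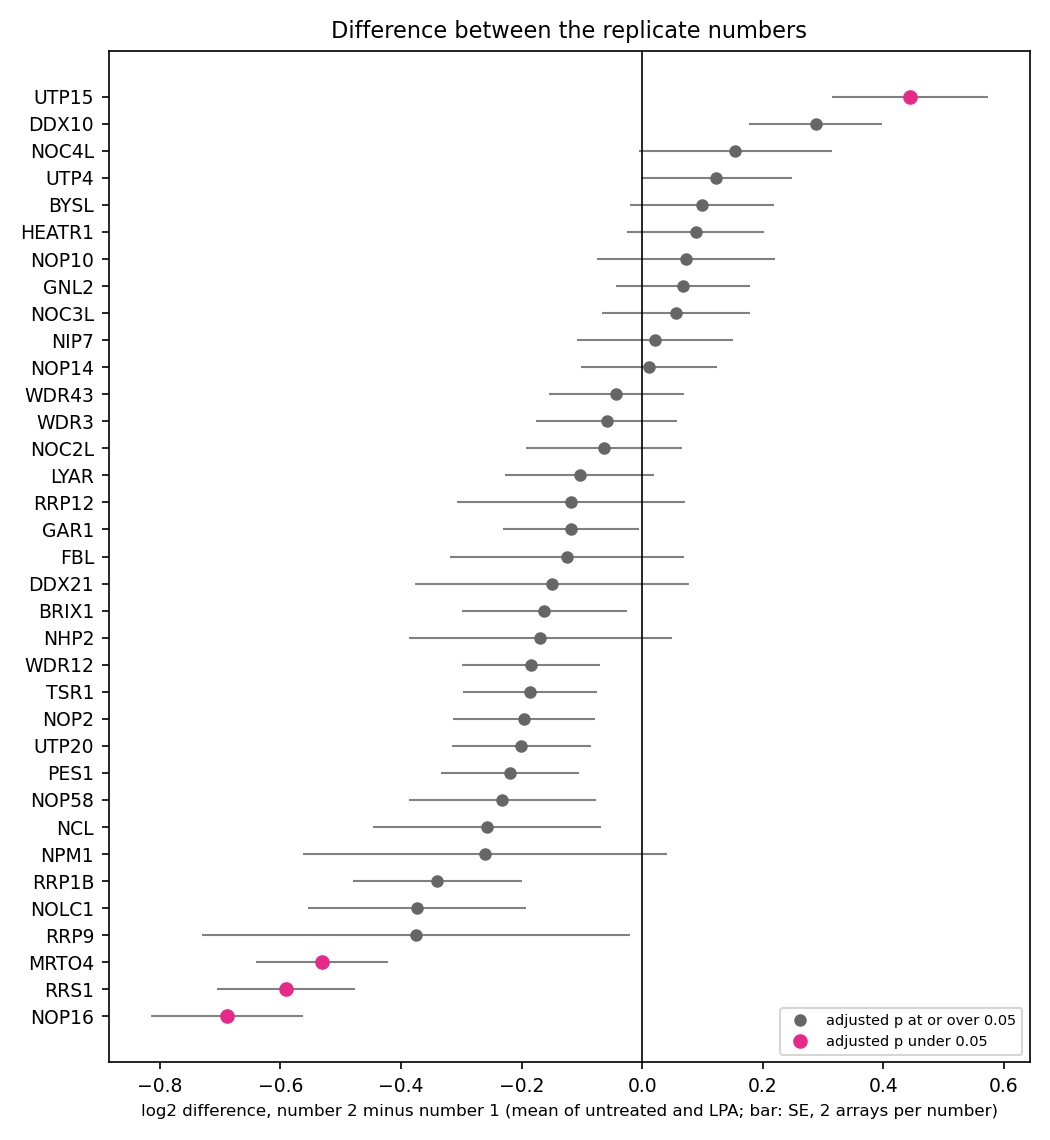
Log2 difference between replicate number 2 and number 1 (horizontal axis, mean of the untreated and LPA differences) for the 35 factors in order of size; bars are limma's SE with 2 arrays per number, and pink points have adjusted p under 0.05. NOP16, RRS1 and MRTO4 lie at the low end and UTP15 at the high end, with 24 of 35 below 0.

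By role, the median difference between numbers was -0.19 for the large subunit factors (9 of 12 negative), -0.26 for the scaffold group (5 of 5), -0.18 for box C/D (2 of 2) and -0.12 for box H/ACA (2 of 3), while the small subunit factors had 0.012 (6 of 13 negative). The large subunit factors had -0.26 in untreated cells and -0.21 in LPA cells, so the median was negative under both treatments. The scaffold group had 0.029 in untreated and -0.40 in LPA cells, and box H/ACA 0.13 and -0.26. Within the scaffold group NCL and NOLC1 were negative in untreated cells too, at -0.23 and -0.24. LPA replicate 2 was the lowest array for all 8 genes of these 2 groups, and its part in the LPA values was not tested. Quantile normalization brought the scaffold median to -0.090, box C/D to -0.091 and box H/ACA to -0.062, while the large subunit factors had -0.19. Median centring turned the small subunit median to -0.053. Neither a difference between roles nor one between treatments was tested.

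The smaller differences between numbers were -0.26 for NPM1 and NCL, -0.23 for NOP58, -0.22 for PES1, -0.20 for UTP20 and NOP2, -0.19 for TSR1, -0.18 for WDR12, -0.17 for NHP2, -0.16 for BRIX1 and -0.15 for DDX21. FBL and GAR1 had -0.12, RRP12 -0.12, LYAR -0.10, NOC2L -0.063, WDR3 -0.059 and WDR43 -0.043. Positive values were 0.15 for NOC4L, 0.12 for UTP4, 0.099 for BYSL, 0.089 for HEATR1, 0.073 for NOP10, 0.068 for GNL2, 0.056 for NOC3L, 0.022 for NIP7 and 0.012 for NOP14. None of these passed.

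Probe sets of a gene did not always move together. Of the 35 factors, 15 had more than 1 probe set above the filter, and all of them had the same sign in 8 genes for the difference between numbers and in 9 for LPA. NOP16 had 4. The next brightest also read lower in number 2, at 3247 and 3004 against 4123 and 3562 (-0.30), and the 2 dim ones gave -0.48 and 0.15. The second MRTO4 probe set read 1230 and 1054 in number 1 and 989 and 1113 in number 2 (-0.12), so its numbers overlapped. RRS1 had a single probe set. NPM1 had 3 bright ones that all gave -0.26 to -0.18, and in each of them LPA replicate 2 was the low array. With the mean of all probe sets per gene, RRS1 alone passed (adjusted p = 0.0421), while NOP16 gave -0.33, MRTO4 -0.32 and UTP15 turned to -0.36.

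**Figure D5:**
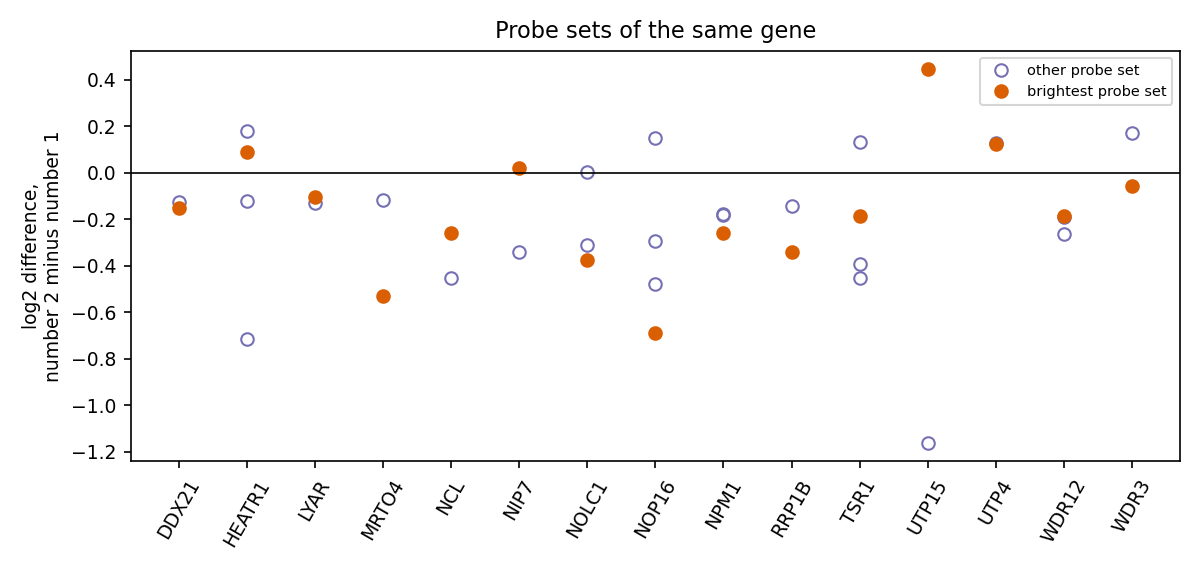
Log2 difference between replicate number 2 and number 1 (vertical axis) for every probe set above the filter in the 15 factors that have more than 1; filled points are the brightest probe sets and open points the others. The 2 UTP15 probe sets lie on opposite sides of 0, at 0.44 and -1.16.

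Of the other ribosome assembly genes, 11 of 111 passed between the numbers, 3 higher and 8 lower in number 2. Over all genes 11.6% passed (1382 of 11865), 687 higher and 695 lower, so the share was near that of the whole array. In the small subunit list of 43 tested genes 4 were lower and 2 higher. The processome protein WDR75 read 2268 and 1500 in number 1 and 1169 and 905 in number 2 (-0.84 ± 0.13, adjusted p = 5.12e-05). The GTPase BMS1 (-0.70, adjusted p = 6.06e-05), MPHOSPH10 (-0.45, adjusted p = 0.00677) and TSR2 (-0.63, adjusted p = 0.0219) were lower too. In the large subunit list of 38 the 2 that passed were both lower: NOL9, a kinase of rRNA ends (-0.43, adjusted p = 0.00885), and EIF6, which keeps free large subunits from joining (-0.40, adjusted p = 0.0174). PELP1 (-0.50) and DDX31 (-0.71) did not pass.

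Among 16 genes of RNA polymerase I and its factors, TAF1A was higher (0.66, adjusted p = 0.00587) and UBTF, which binds the rRNA gene promoter, lower (-0.72, adjusted p = 0.0402). POLR1F (0.32) and POLR1A (-0.63) did not pass. Among 14 tested exosome and nuclease genes EXOSC6 was lower (-0.82, adjusted p = 0.000217), and EXOSC9 (0.30), EXOSC4 (-0.19) and MTREX (0.14) did not pass. No cytosolic ribosomal protein gene passed, of 53 tested. Of the 73 mitochondrial ones 12 did, 1 higher and 11 lower, against 11.6% of all genes. These calls too were lost without the intensity trend.

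Factors with and without CACGTG in the promoter window had medians that lay close together for LPA. For LPA the 13 measured factors with the letters had -0.055 (from -0.50 to 0.12) and the 17 without had -0.055 (from -0.29 to 0.47). Between the numbers the medians were -0.043 with the letters (from -0.53 to 0.12) and -0.12 without (from -0.69 to 0.44), so the ranges overlapped widely. Of the 3 called factors with a promoter entry, MRTO4 has the letters at its start site, while NOP16 and UTP15 have no match in the window.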

How the data were processed

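RNA of 4 HEK293 samples was measured on Affymetrix arrays. The deposited intensity values, 1 per probe set and array, come from MAS5, which the submitters' processing notes name. They are linear, and the arrays share a trimmed mean. The MAS5 version and settings are not stated, and detection calls were not used here. Of 54675 probe sets, 41097 had 1 symbol, 1801 several and 11777 none. Values were taken as log2(intensity + 1), so folds of dim genes are understated. The 40% of genes with the lowest mean over the 4 arrays were left out. LPA was compared with no treatment, and number 2 with number 1 (treatment as a term), with limma 3.58.1 in R 4.3.3 (lmFit, then eBayes with its variance prior following intensity). P-values were two-sided and adjusted by Benjamini-Hochberg across the 11865 genes, with a threshold of 0.05. The fits were run on simulated data with independent noise and known differences. For the LPA fit no difference between the replicate numbers was simulated, so the run does not cover that case.

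Members and lists were chosen with earlier results of these data known. All 35 measured factors are named; values on every array are given for the 16 with no overlap in the LPA comparison, with 1 of the 8 largest differences between numbers, with an unadjusted p under 0.05, or with opposite LPA differences over 0.2 in the 2 numbers (0 factors). NHP2, NCL, NPM1 and NOC4L were added after their values were seen. Up to 4 genes per further list were named by p. Alternatives were the pseudocount, filter, scaling, probe set summary, variance trend, replicate block and each array left out.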

Additional observations from a re-analysis of the deposited data

How the results depend on the processing

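With 2 arrays per group the precision is low, and dim probe sets have no detection call. For LPA, 0 nucleolar factors passed under any of the 14 alternatives, and 0 genes passed under those that changed the pseudocount, filter, scaling, probe set summary or trend. Leaving out 1 array gave 0 to 3 genes, and a factor median of -0.18 to 0.0014. Adding a block for replicate number gave 32 genes, TAF1D among them (limma adjusted p = 0.0317), and 4 with quantile normalization added, with 0 factors in both; the same-numbered arrays' deviations correlated at r = 0.33 across 11865 genes, which are not independent, and the labels do not say that the number pairs the arrays. Between the numbers, 168 genes and 1 factor passed with the mean of all probe sets, 0 and 0 without the intensity trend, 7 factors with cyclic loess, and 445 genes and 3 factors (NOP16, RRS1 and MRTO4) without the treatment term. UTP15 turned to -0.36 with the mean of all probe sets. Leaving out 1 array left no residual degree of freedom for that fit, so only its factor median is given, -0.19 to -0.072. The sign of the difference changed under at least 1 alternative for 20 of 35 factors for LPA and 21 of 35 between the numbers; of these only UTP15 between the numbers had passed.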
